A study of Mus musculus with 18 samples.

Results

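The genes described here are 10 direct targets of WNT and beta-catenin signalling that are widely used as readouts of that pathway: Axin2, Lef1, Nkd1, Nkd2, Sp5, Lgr5, Rnf43, Znrf3, Notum and Apcdd1. Every probe set whose platform annotation gave one symbol equal to a member was taken, which gave 25 probe sets of the 45101 on the array. Their 10 brightest probe sets, 1 for each gene, stood for the members among 18193 genes. The data came from palate of C57BL/6J mouse embryos at embryonic day 15.5 (E15.5), read on 18 Affymetrix arrays in 3 groups of 6. Control embryos were Tgfbr2 fl/fl, and their anterior and posterior palate were hybridised separately. Mutant embryos were Tgfbr2 fl/fl;K14-Cre and gave posterior palate alone. By the genotype label all 3 groups carried the floxed Tgfbr2 alleles, and the Cre transgene was the labelled difference. The source label calls the controls wildtype instead, and the genotype label was followed here. The keratin 14 promoter drives Cre in epithelium, whereas the RNA came from whole palatal tissue with its mesenchyme, muscle, bone and vessels. In such tissue, fewer cells of a type and less RNA per cell cannot be told apart. Control and mutant embryos came from separate litters, and the design text counts 5 samples per group where the labels list 6. Nothing in the labels says whether an array holds 1 embryo or a pool, so each p-value reflects only how far these samples spread.

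In canonical WNT signalling, a ligand bound to a Frizzled receptor and an LRP co-receptor halts the destruction complex that normally degrades beta-catenin. Beta-catenin then enters the nucleus and switches on target genes together with TCF and LEF factors. Many of those targets are brakes on the same pathway, acting at the membrane, in the cytoplasm or outside the cell. WNT signalling between epithelium and mesenchyme is known to be needed for the growth and closure of the palatal shelves.

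The start sites of 4 members that the results turn on are shown first. No window of Lgr5, Znrf3, Notum or Apcdd1 was searched, so nothing is said of their start sites. The 10 RefSeq promoter windows used were on build GRCm38.p6 and belonged to 6 of the 10 members. They ran from 250 bases before to 50 bases after a start site. They were searched on both strands for 4 forms of the core letters bound by TCF and LEF factors, namely CTTTGAA, then CTTTGAT, then also CTTTGTA, and lastly CTTTGTT. Any of the 4 forms occurred in 5544 of 32851 promoter windows of the same length (16.9%), and in windows of 2 members, Sp5 and Lef1. Capitals mark the matches. Sp5 lies at chr2:70474673-70474972 on the plus strand, and its window held CTTTGTT on the other strand, read as AACAAAG from 222 bases before the start, and CTTTGAT from 104 bases before the start. Axin2 (chr11:108920099-108920398, plus strand), Nkd2 (chr13:73847582-73847881, minus strand) and Nkd1 (chr8:88527383-88527682, plus strand) had no match in these windows. The annotated gene starts of Axin2 and Nkd1, at 108917828 and 88521342, lie before their windows, which are at start sites inside the genes. Sp5 is shown for its pair of matches, Axin2 and Nkd2 because their levels moved together across arrays, and Nkd1 because it was the member called between genotypes.
Sp5: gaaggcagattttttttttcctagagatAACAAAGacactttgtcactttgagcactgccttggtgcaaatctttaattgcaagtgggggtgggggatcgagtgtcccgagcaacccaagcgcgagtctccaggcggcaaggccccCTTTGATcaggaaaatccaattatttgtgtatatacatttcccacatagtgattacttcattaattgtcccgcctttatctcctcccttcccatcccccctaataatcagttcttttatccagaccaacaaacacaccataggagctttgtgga
Axin2: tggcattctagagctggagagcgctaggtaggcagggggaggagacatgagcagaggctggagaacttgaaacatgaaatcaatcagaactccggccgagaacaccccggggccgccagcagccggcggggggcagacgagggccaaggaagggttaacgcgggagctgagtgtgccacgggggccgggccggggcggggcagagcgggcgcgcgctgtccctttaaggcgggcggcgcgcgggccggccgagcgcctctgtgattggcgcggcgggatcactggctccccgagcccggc
Nkd2: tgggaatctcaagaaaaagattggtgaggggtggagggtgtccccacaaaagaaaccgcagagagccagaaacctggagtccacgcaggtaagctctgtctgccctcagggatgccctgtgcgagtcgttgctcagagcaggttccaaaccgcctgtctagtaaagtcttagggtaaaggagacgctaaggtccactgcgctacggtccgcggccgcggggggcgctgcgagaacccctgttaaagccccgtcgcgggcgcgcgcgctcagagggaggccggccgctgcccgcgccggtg
Nkd1: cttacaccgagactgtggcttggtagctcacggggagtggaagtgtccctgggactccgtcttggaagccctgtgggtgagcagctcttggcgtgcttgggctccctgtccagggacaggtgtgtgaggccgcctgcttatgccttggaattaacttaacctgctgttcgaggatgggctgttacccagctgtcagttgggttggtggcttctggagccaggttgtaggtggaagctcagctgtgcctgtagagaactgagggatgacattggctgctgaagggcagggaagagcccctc

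The remaining match lay at 1 of 4 Lef1 start sites, chr3:131156044-131156343 on the plus strand, where CTTTGTA was found on the other strand from 147 bases before the start. The other 3 Lef1 windows and both Rnf43 windows held none of the 4 forms. A match is a description of letters and not of binding, and a window without one says nothing about sequence outside it.

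Array means of the log2 values lay between 6.26 and 6.37. The mean of 19 basal and simple epithelium genes, among them Cdh1 and Epcam, was 10.68 to 11.68 in the control arrays and 10.53 to 11.41 in mutant arrays 2 to 6. Mutant array 1 stood apart at 8.81, and its skeletal muscle mean of 11.97 was the highest of all arrays. The mean of 16 skeletal muscle genes was 5.51 to 7.66 in control anterior arrays and 9.15 to 10.43 in control posterior arrays. Arrays 1 to 3 and 4 to 6 of each group also differed in the RNA spiked in for labelling or hybridisation, and the labelling spikes were 8.75 to 10.48 in control arrays and 6.79 to 8.28 in mutant arrays. The labels name no batch, so the sets are called arrays 1 to 3 and arrays 4 to 6 here. Sets of the same number were not alike across genotypes. Hybridisation spikes were 10.53 to 10.55 in control posterior arrays 1 to 3 and 11.38 to 11.91 in mutant arrays 1 to 3. Tgfbr2 itself was higher in the mutant arrays (10.46 ± 0.20 in control posterior and 11.01 ± 0.27 in mutant posterior, SD, n = 6; limma adjusted p = 0.00879). That probe set's position relative to the floxed exons was not examined and the tissue was not purified epithelium, so it does not check the labels.

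Loss of epithelial Tgfbr2 was addressed by comparing mutant with control posterior palate, and of the 10 target genes only Nkd1 passed the test. The labelling spikes of the control and mutant arrays did not overlap, and the litters were separate. Genotype, litter and array handling thus cannot be told apart in this comparison. Nkd1, which binds Dishevelled and dampens the WNT signal, was 1.5-fold higher in the mutant arrays. Axin2, Lef1, Sp5, Lgr5 and Nkd2 had differences between -0.05 and 0.17 on the log2 scale. Rnf43, Znrf3 and Notum had larger differences of -0.70, -0.44 and 0.38 that did not pass. The count of 1 in 10 stood beside 13.5% of all genes called in this comparison (limma, Benjamini-Hochberg adjusted p under 0.05). Of those calls 57.5% were higher in the mutant arrays, or 40.5% after median centring. The groups did not overlap for 1 of 10 members, beside 6.55% of all genes. Among members 5 of 10 differences were above 0 with a median of 0.004, where the median over all genes was 0.041. At an unadjusted p under 0.05 there were 4 members, Nkd1, Rnf43, Znrf3 and Notum. Over all probe sets, 1 of 25 was called (10.7% on the array), 1 of 25 had groups that did not overlap (5.47% on the array) and 13 of 25 were above 0.

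**Figure D1:**
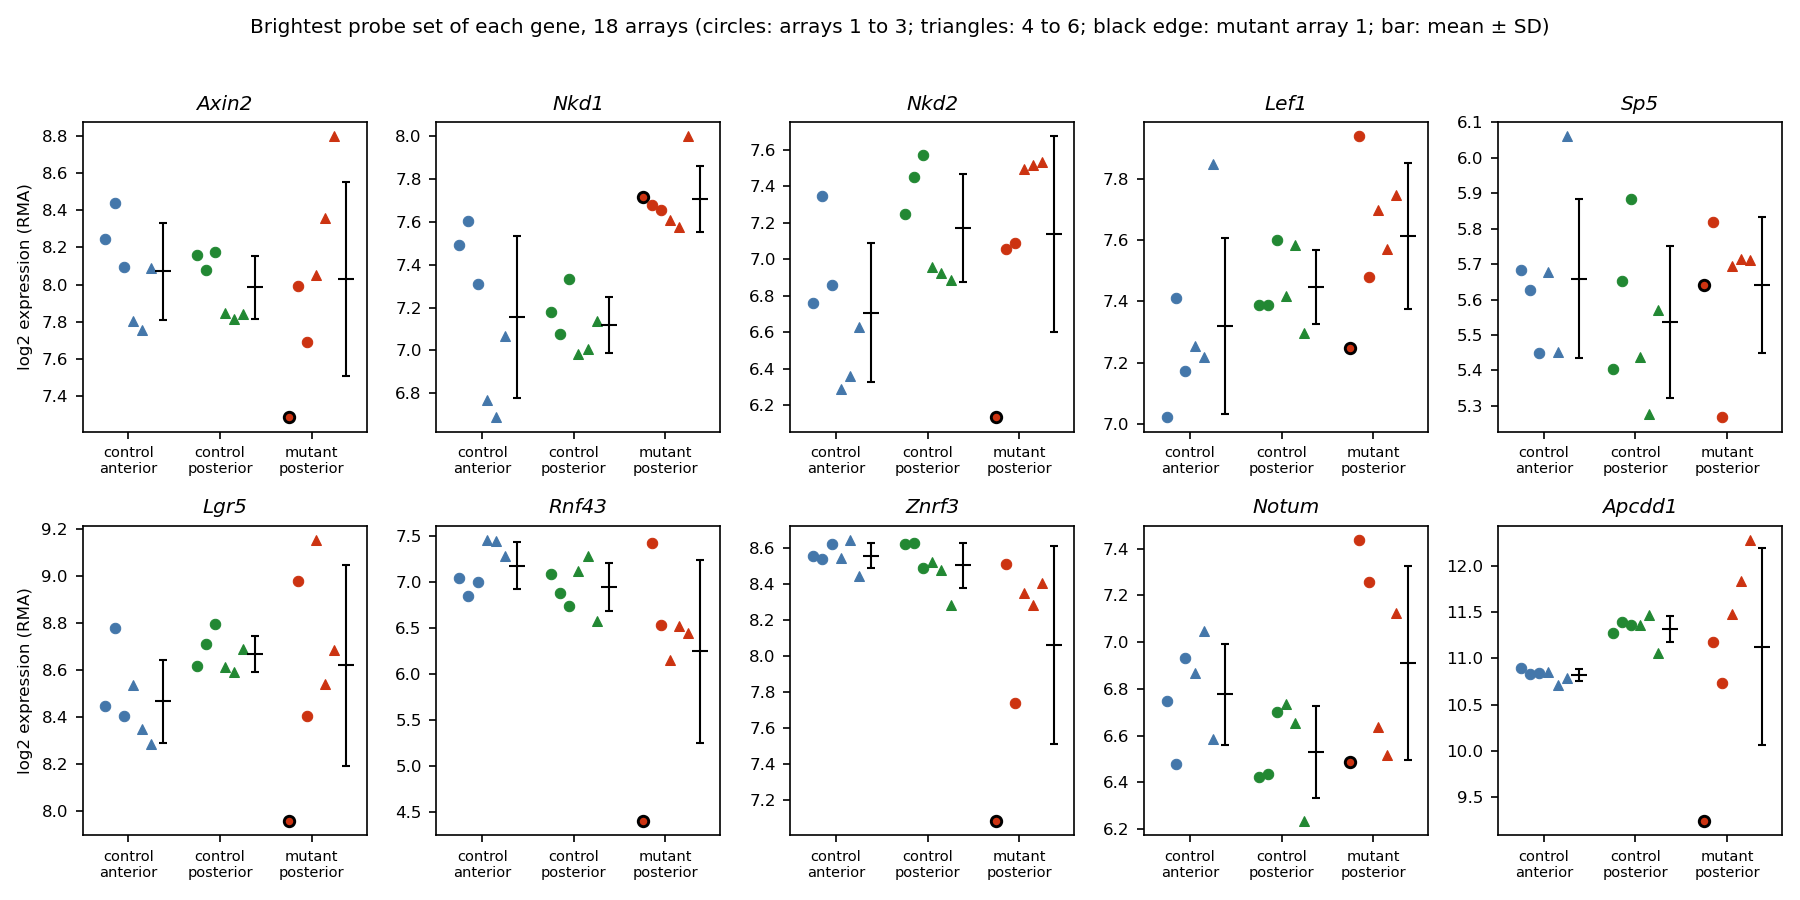
Log2 expression (y axis) of the brightest probe set of each of the 10 genes in the 3 groups (x axis), with 6 arrays per group as points and the mean ± SD as a bar; circles are arrays 1 to 3, triangles arrays 4 to 6, and the black edge marks mutant array 1. The 6 mutant values of Nkd1 lie above all control posterior values, and mutant array 1 is the lowest mutant value for 8 of the 10 genes.

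The target genes that act inside the cell on beta-catenin or Dishevelled came first. For the brightest Nkd1 probe set, the control posterior values were 6.98 at the lowest, 7.11 at the median and 7.34 at the highest, and the mutant values were 7.58, 7.67 and 8.0. All mutant arrays were thus above all control posterior arrays. The difference was 0.59 (SE 0.14, 95% interval 0.30 to 0.87), with means of 7.12 ± 0.13 and 7.71 ± 0.15 (SD, n = 6) and a limma adjusted p of 0.00936. The call was kept in all 18 fits that left out 1 array, with adjusted p between 0.00513 and 0.0257. It was also kept with arrays 1 to 3 only (0.49, adjusted p = 0.0276) and with arrays 4 to 6 only (0.69, adjusted p = 0.0121). Control anterior Nkd1 values ran from 6.69 to 7.60, so they met the lowest mutant values. Nkd1 had 3 further probe sets, with differences of -0.03, 0.22 and 0.06, none of them called, and the mean of the 4 probe sets was not called (0.21, adjusted p = 0.121). With the 4 array sets as a random block, the Nkd1 adjusted p was 0.0532, in a fit that called 3.23% of all genes.

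Axin2 encodes the inducible scaffold of the beta-catenin destruction complex. Its control posterior values were 7.81, 7.96 and 8.18 (lowest, median and highest), and the mutant values were 7.28, 8.02 and 8.80. The mutant arrays lay on both sides of every control posterior array, with a difference of 0.04 (SE 0.19, 95% interval -0.36 to 0.44, adjusted p = 0.909). Nkd2, the relative of Nkd1 with a like role at Dishevelled, ran from 6.89 through 7.10 to 7.57 in control posterior and from 6.13 through 7.29 to 7.53 in mutant arrays. Its difference was -0.04 (SE 0.22, 95% interval -0.51 to 0.44, adjusted p = 0.938). Both means hid a split by array set. In control anterior and control posterior palate, arrays 1 to 3 were above arrays 4 to 6 for both genes, and in mutant palate they were below, with no overlap between the sets in any group. Mean Axin2 was 8.14 in control posterior arrays 1 to 3 and 7.83 in arrays 4 to 6, against 7.66 and 8.40 in the mutant sets. Mean Nkd2 was 7.42 and 6.92 in the control posterior sets, against 6.76 and 7.52 in the mutant sets. The same pattern was present in 217 of 18193 genes (1.19%). Over all member probe sets it was present in 3, the brightest of Axin2, the brightest of Nkd2 and another of Nkd2 (0.744% on the array). The second Axin2 probe set did not have it, but was dim, with a control posterior mean of 3.73. In control anterior palate the Axin2 sets nearly met, with 8.094 the lowest of arrays 1 to 3 and 8.089 the highest of arrays 4 to 6.

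With arrays 1 to 3 only, the Axin2 difference was therefore -0.48 (adjusted p = 0.119), and with arrays 4 to 6 only it was 0.57 (adjusted p = 0.0511). For Nkd2 the corresponding values were -0.66 (adjusted p = 0.153) and 0.59 (adjusted p = 0.00518). Nkd2 was thus called higher with arrays 4 to 6 only, a fit in which 18.4% of all genes were called. The difference between the sets itself was not tested, and what separates the sets is not given by the labels. Control and mutant sets of the same number also differed in their spikes, so these values cannot be taken as comparisons within 1 batch. Of the other members, Nkd1 in control anterior palate also had arrays 1 to 3 above 4 to 6 without overlap (means 7.47 and 6.84), a split that its mutant arrays did not have (7.68 and 7.73). Counted over the brightest probe sets, the 2 sets did not overlap for 4 of 10 members among anterior controls (15.4% of all genes). They did not overlap for 2 of 10 among posterior controls (24.4%) and for 3 of 10 among mutants (31.1%).

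**Figure D2:**
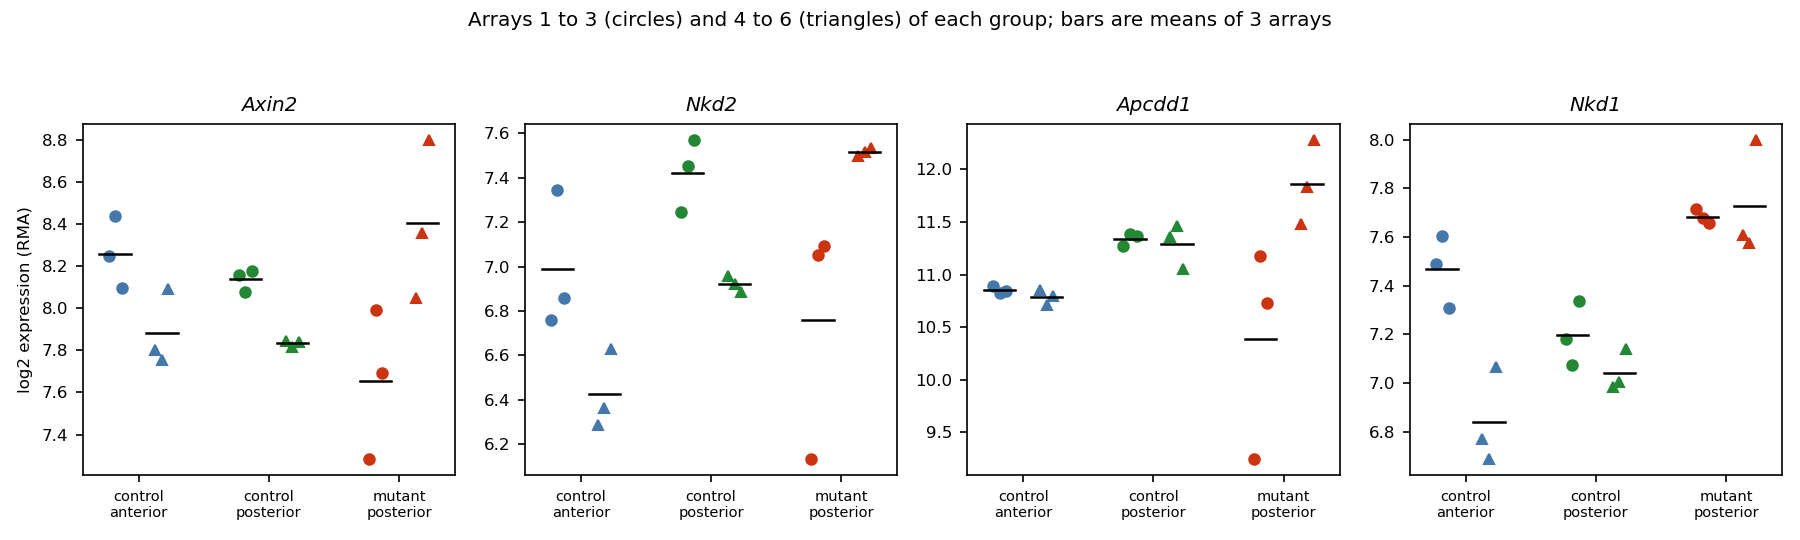
Log2 expression (y axis) of Axin2, Nkd2, Apcdd1 and Nkd1 in the 3 groups (x axis), split into arrays 1 to 3 (circles) and 4 to 6 (triangles), with the mean of each set of 3 as a bar. For Axin2 and Nkd2 the circles lie above the triangles in both control groups and below them in the mutant group.

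The nuclear members gave small differences. Lef1, a DNA-binding partner of beta-catenin, ran from 7.30 through 7.40 to 7.60 in control posterior and from 7.25 through 7.63 to 7.94 in mutant arrays. The ranges overlapped, and the difference was 0.17 (SE 0.13, 95% interval -0.10 to 0.43, adjusted p = 0.417). Its other probe set, dim at a control posterior mean of 3.98, gave 0.22 and was not called either. Sp5, a zinc finger transcription factor induced by WNT signals, ran from 5.28 through 5.50 to 5.88 in control posterior and from 5.27 through 5.70 to 5.82 in mutant arrays. The Sp5 difference was 0.10 (SE 0.12, 95% interval -0.14 to 0.35, adjusted p = 0.611).

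The members that set receptor levels at the membrane came next. Lgr5, a receptor for R-spondins, had control posterior values of 8.59, 8.65 and 8.79 and mutant values of 7.96, 8.61 and 9.15. The mutant arrays spread to both sides of the controls, with a difference of -0.05 (SE 0.15, 95% interval -0.36 to 0.26, adjusted p = 0.864). Rnf43, a membrane ubiquitin ligase that removes Frizzled receptors, had control posterior values of 6.58, 6.98 and 7.28 and mutant values of 4.40, 6.48 and 7.42. Of the mutant arrays 5 lay below every control posterior array and 1, array 2, lay above all of them. The Rnf43 difference was -0.70 (SE 0.33, 95% interval -1.39 to -0.02, adjusted p = 0.168). Znrf3, the paralogue of Rnf43 with the same action on Frizzled, ran from 8.28 through 8.50 to 8.62 in control posterior and from 7.09 through 8.32 to 8.51 in mutant arrays. Its difference was -0.44 (SE 0.18, 95% interval -0.81 to -0.07, adjusted p = 0.110). The second Znrf3 probe set gave 0.005 but was dimmer, with a control posterior mean of 4.90.

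Mutant array 1, the array with the low epithelium mean, gave the lowest Rnf43, Znrf3 and Lgr5 values. Without it the difference was -0.33 for Rnf43 (adjusted p = 0.272), -0.25 for Znrf3 (adjusted p = 0.157) and 0.08 for Lgr5 (adjusted p = 0.701). Without mutant array 2, the Rnf43 difference was -0.94 and passed (adjusted p = 0.0430), in a fit that called 14.8% of all genes. With arrays 4 to 6 only, Rnf43 also passed (-0.62, adjusted p = 0.0409). With the epithelium mean as a covariate, Rnf43 was -0.31 (adjusted p = 0.0813) and Znrf3 was -0.26 (adjusted p = 0.157). None of the 19 epithelium genes was called between genotypes, and 18 of them had a difference below 0. The epithelium means of the control posterior arrays ran from 10.68 to 11.15, and those of mutant arrays 2 to 6 from 10.53 to 11.41. Stratified epithelium genes went the other way. Of 17 such genes, 14 had a difference above 0 and 11 were called higher in the mutant arrays (7.73% of all genes).

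**Figure D3:**
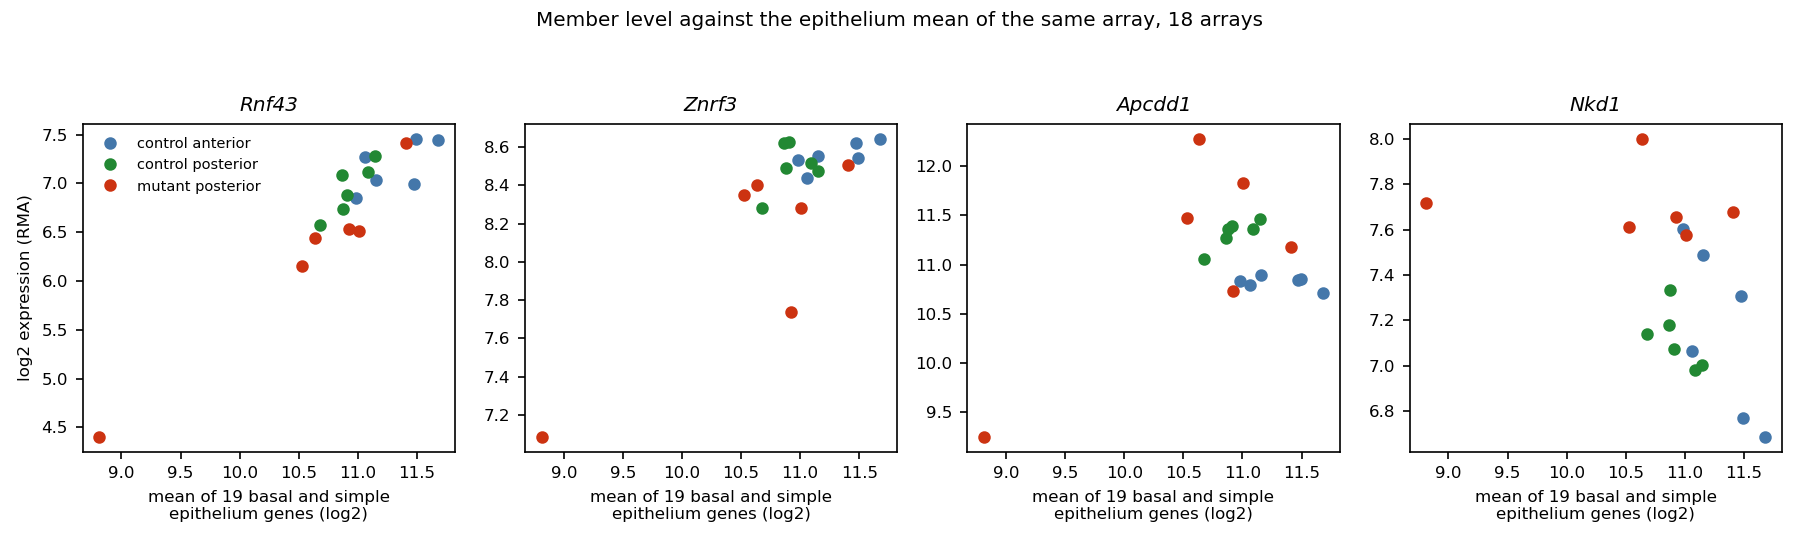
Log2 expression (y axis) of Rnf43, Znrf3, Apcdd1 and Nkd1 against the mean log2 level of 19 basal and simple epithelium genes in the same array (x axis), with 18 arrays coloured by group. Mutant array 1, at an epithelium mean of 8.81, holds the lowest Rnf43, Znrf3 and Apcdd1 values, while its Nkd1 value lies among those of the other mutant arrays.

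The secreted and surface-bound antagonists of WNT closed the list. Notum, a secreted enzyme that inactivates WNT by removing its lipid, ran from 6.24 through 6.54 to 6.73 in control posterior and from 6.49 through 6.88 to 7.44 in mutant arrays. Its ranges overlapped, and the difference was 0.38 (SE 0.16, 95% interval 0.05 to 0.72, adjusted p = 0.123). With the epithelium covariate the Notum difference was 0.51 and passed (adjusted p = 0.0172), in a fit that called 12.5% of all genes. Apcdd1, a membrane glycoprotein that binds WNT and LRP, had control posterior values of 11.06, 11.36 and 11.46, and mutant values of 9.25, 11.33 and 12.28. Its mutant values enclosed the whole control posterior range, and the difference was -0.19 (SE 0.33, 95% interval -0.88 to 0.50, adjusted p = 0.750). Without mutant array 1 the Apcdd1 difference was 0.18 (adjusted p = 0.573). It was -0.95 with arrays 1 to 3 only (adjusted p = 0.175) and 0.57 with arrays 4 to 6 only (adjusted p = 0.0660).

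The mutant arrays were also more spread than the controls for most members. The SD was larger in mutant than in control posterior arrays for 9 of 10 members, the exception being Sp5, and for 84.8% of all genes. The median ratio of the SDs was 2.59 over the members and 1.91 over all genes. Apcdd1 had the largest ratio among the members; its SD was 0.14 in controls of the posterior palate and 1.06 in mutants (7.50 times). Lgr5 followed at 5.49 times and Znrf3 at 4.37 times, whereas Nkd1 had 1.17 times. Mutant array 1 held the lowest mutant value for 8 of 10 members and for 23.7% of all genes. The part of array composition in these ratios was not tested.

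**Figure D4:**
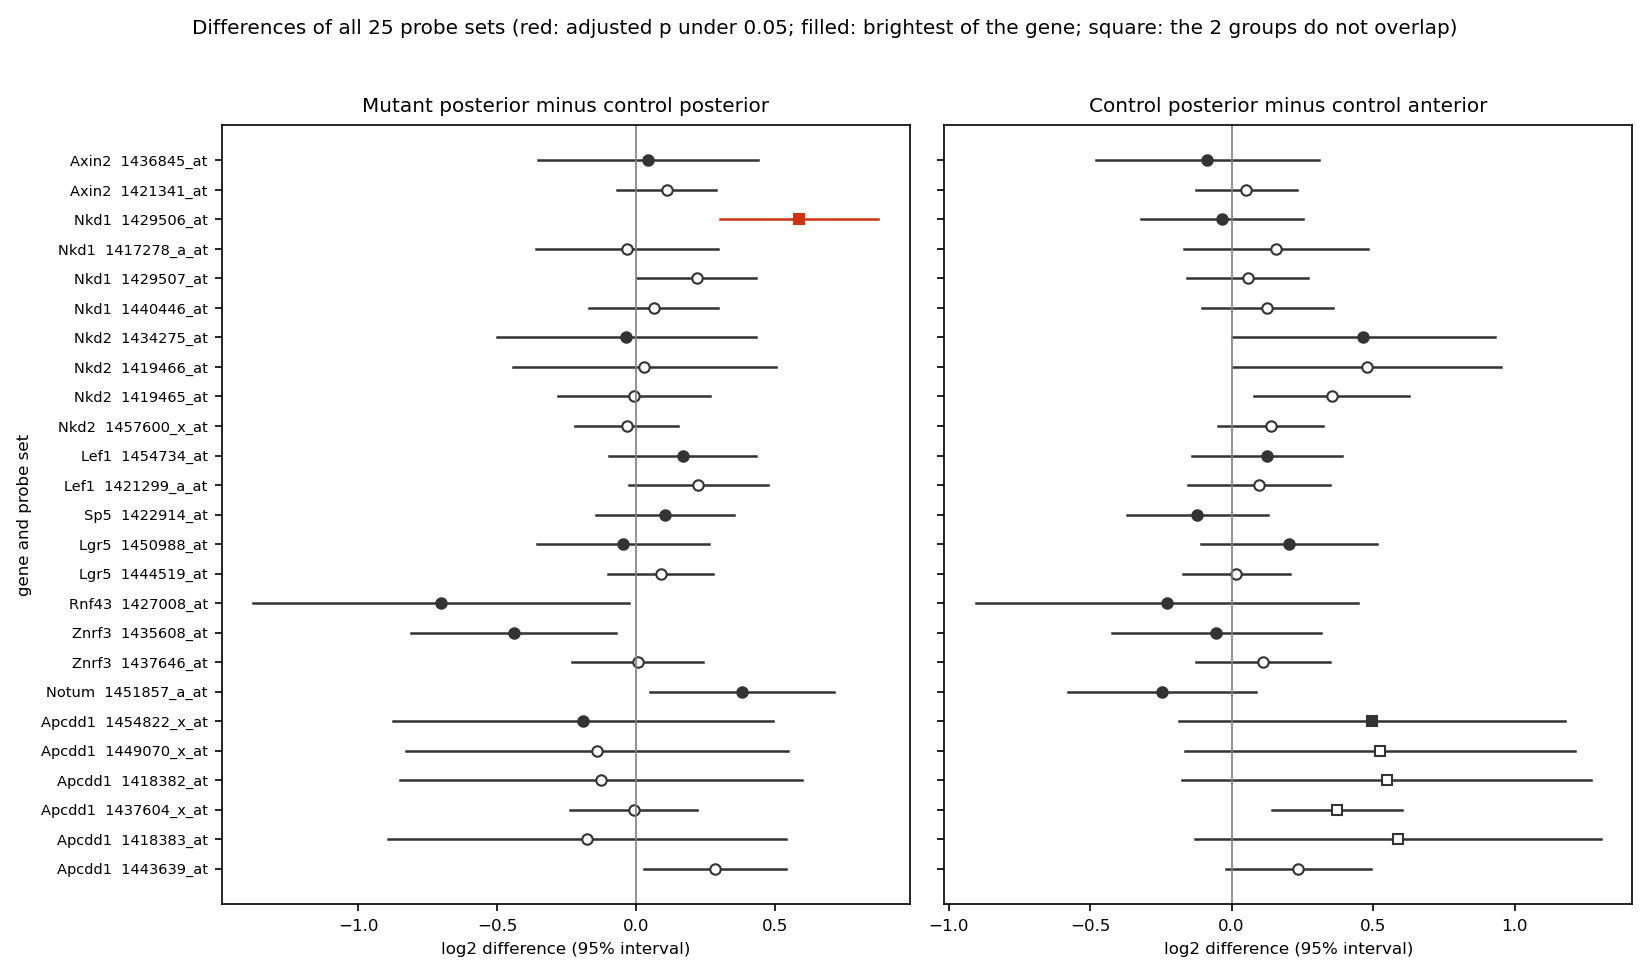
Log2 difference with its 95% interval (x axis) for each of the 25 probe sets (y axis), in mutant against control posterior palate and in control posterior against control anterior palate; red marks adjusted p under 0.05, filled symbols the brightest probe set of a gene, and squares groups that do not overlap. The single red symbol is Nkd1 at 0.59, and 5 of the 6 Apcdd1 probe sets are squares in the comparison of regions.

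The difference between palate regions was addressed in control embryos, posterior against anterior, and none of the 10 target genes was called when all 18 arrays set the spread. Apcdd1 and Nkd2 had the largest differences, both higher in posterior palate, at 0.50 and 0.47. The count of 0 in 10 stood beside 3.82% of all genes called by limma, and 0 members had an unadjusted p under 0.05. Of the calls over all genes 44.5% were higher in posterior palate, or 71.2% after median centring. Of the members 4 of 10 differences were above 0 with a median of -0.04, where all genes had a median of -0.02. The groups did not overlap for 1 of 10 members (6.32% of all genes). Over the probe sets, 0 of 25 were called (1.86% on the array), 19 of 25 were above 0, and 5 of 25 had groups that did not overlap (4.48% on the array).

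Those 5 probe sets all belonged to Apcdd1. At the brightest one, the control anterior values were 10.72, 10.84 and 10.89, and the control posterior values were 11.06, 11.36 and 11.46. Every posterior array was above every anterior array, and the means were 10.82 ± 0.06 and 11.32 ± 0.14 (SD, n = 6). The difference was 0.50 (1.41-fold), but its SE of 0.33 came from a spread that included the mutant arrays, and the adjusted p was 0.427 (95% interval -0.20 to 1.19). All 6 Apcdd1 probe sets were above 0, between 0.24 and 0.59. The smallest difference came from a dim probe set with a control posterior mean of 3.89. With the 12 control arrays alone, Apcdd1 was called (adjusted p = 0.000421), in a fit that called 11.8% of all genes. With the replicate number as a block in those arrays, its adjusted p was 0.00280, and 17.3% of all genes were called. Without mutant array 1 alone its adjusted p was 0.0992. The mutant arrays, where Apcdd1 had an SD of 1.06, thus decided this call. The region difference of Apcdd1 was 0.48 within arrays 1 to 3 and 0.51 within arrays 4 to 6.

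For Nkd2, the control anterior values were 6.29, 6.70 and 7.35, which overlapped the control posterior values of 6.89, 7.10 and 7.57. The difference was 0.47 (SE 0.22, 95% interval -0.01 to 0.94, adjusted p = 0.257), and all 4 Nkd2 probe sets were above 0. Without the mutant arrays its adjusted p was 0.0988, and with the replicate block as well it was 0.0108. Notum was lower in posterior palate by a difference of -0.25 (SE 0.16, adjusted p = 0.410). Its control anterior values were 6.48, 6.81 and 7.05, and its adjusted p with the replicate block in the control arrays was 0.0303. Skeletal muscle genes differed between the same arrays (15 of 16 higher in posterior palate), so muscle content and region cannot be told apart. With the skeletal muscle mean as a covariate the difference was 2.26 for Apcdd1 (adjusted p = 0.149), 1.57 for Nkd2 (adjusted p = 0.159) and -0.05 for Notum (adjusted p = 0.966).

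The other members were close between regions. Axin2 ran from 7.76 through 8.09 to 8.44 in control anterior palate and differed by -0.09 (95% interval -0.49 to 0.31). Nkd1 ran from 6.69 through 7.19 to 7.60 and differed by -0.03 (95% interval -0.32 to 0.25). Lef1 ran from 7.02 through 7.24 to 7.85 and differed by 0.13 (95% interval -0.14 to 0.39). Each of those ranges took in control posterior values. Sp5 had a difference of -0.12 and Lgr5 of 0.20, with control anterior medians of 5.65 and 8.42. Rnf43 had a difference of -0.23 from a control anterior median of 7.15, and Znrf3 of -0.05 from 8.55. Adjusted p-values for these genes lay between 0.477 and 0.923.

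How the members moved relative to each other was described over the 18 arrays after the mean of each group was subtracted. The points share arrays, array sets and tissue composition, so the coefficients are descriptions. Axin2 and Nkd2 had a Pearson r of 0.86, or 0.78 without mutant array 1. Axin2 and Apcdd1 had 0.83, or 0.77 without it. Znrf3 had 0.88 with Apcdd1 and 0.80 with Rnf43, which fell to 0.58 and 0.31 without mutant array 1. Nkd1 had 0.53 with Nkd2 and 0.58 with Axin2, which were 0.73 and 0.73 without that array, and -0.01 with Lef1.

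Over all genes, the closest patterns to Axin2 were those of Synpo (r = 0.95), Twsg1 (0.95) and Unc5d (0.94). Nkd2 was closest to Tsc22d1 (0.94), Atp10a (0.94) and Bbs1 (0.93), and Nkd1 to Crtc3 (0.93), Gm715 (0.92) and Zfp423 (0.90). Apcdd1 was closest to Meis2 (0.97), Lrig3 (0.97) and Pax9 (0.97), of which Meis2 and Pax9 encode transcription factors of the palate. Rnf43 was closest to Igsf9 (0.97), Cdcp1 (0.97) and Tnk1 (0.97), and Znrf3 to Lgi2 (0.94), Cisd2 (0.94) and Celsr1 (0.93). These values for Rnf43 and Znrf3 were 0.75 to 0.94 without mutant array 1. Notum was closest to Mctp2 (0.87), Ereg (0.86) and Krt23 (0.86), of which Krt23 encodes an epithelial keratin. Sp5 was closest to Efna2 (0.89), Gm3740 (0.82) and P2ry10b (0.79), and Lgr5 to Sytl4 (0.86), Lrrc8d (0.85) and A430033K04Rik (0.85). Without mutant array 1 the Lgr5 values were 0.84, 0.69 and 0.70. Lef1 was closest to Trpc6 (0.82), Pomk (0.80) and Zc3h10 (0.78), or 0.78, 0.74 and 0.71 without that array.

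Other genes of the pathway were taken from 7 lists of 119 genes, of which 111 were measured. Between genotypes 11 rose (7.73% of all genes rose) and 2 fell (5.73% of all genes fell) in the mutant arrays, which made 11.7% of them beside 13.5% of all genes, with a median difference of 0.09 over the 111. None of the 21 WNT ligands was called. Of the 15 receptors and co-receptors, 3 rose and 0 fell: Fzd5 by 0.74 (SE 0.16, adjusted p = 0.00696), Fzd9 by 0.57 (adjusted p = 0.0408) and Fzd4 by 0.45 (adjusted p = 0.0398). Among R-spondins and their receptors, Rspo2 rose by 0.64 (adjusted p = 0.0468) and Rspo4 fell by 0.35 (adjusted p = 0.0274), of 6. Of 18 cytoplasmic components the kinases Gsk3b and Csnk1d rose, by 0.32 and 0.25 (adjusted p = 0.0135 and 0.0126). Of 14 nuclear factors the co-repressor Ctbp2 fell by 0.73 (SE 0.16, adjusted p = 0.00744).

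The list of pathway inhibitors gave the largest rises. Dkk4, a secreted blocker of LRP co-receptors, went from 4.94 ± 0.50 in control posterior to 7.42 ± 1.65 in mutant arrays (SD, n = 6), a difference of 2.49 (SE 0.56, adjusted p = 0.00798). Its relative Dkk1 rose by 1.27 (SE 0.38, adjusted p = 0.0346), and Sost, an LRP-binding inhibitor made by bone cells, by 1.26 (SE 0.22, adjusted p = 0.00148). These were 3 of 20 inhibitors measured, with 0 lower. Of 17 other reported targets 2 rose and 0 fell, Lbh by 0.92 (SE 0.16, adjusted p = 0.00161) and the hyaluronan receptor Cd44 by 0.70 (SE 0.19, adjusted p = 0.0231). The mean of 8 bone genes was 8.95 to 9.58 in control posterior and 9.33 to 10.96 in mutant arrays, and its part in the Sost difference was not tested. The stratified epithelium mean was 7.23 to 7.89 and 7.90 to 9.72, and it was not used as a covariate. With the basal and simple epithelium mean as a covariate, 9 of the 13 calls were kept. Fzd9 (0.43, adjusted p = 0.0695), Fzd4 (0.34, adjusted p = 0.0691), Rspo2 (0.52, adjusted p = 0.0913) and Dkk1 (0.97, adjusted p = 0.0563) lost theirs. With the skeletal muscle mean as a covariate, in a fit that called 8.22% of all genes, 9 were kept and Fzd9, Fzd4, Rspo2 and Ctbp2 lost theirs. Of the 13 calls, 7 were kept in all 18 fits that left out 1 array (Fzd5, Gsk3b, Csnk1d, Ctbp2, Dkk4, Sost and Lbh), and 3 were kept with the array sets as a block (Ctbp2, Sost and Lbh). With the most variable probe set of each gene, Gsk3b changed sign to -0.15.

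The remaining calls between genotypes were lost in part of those 18 fits. Without control posterior array 5 the value was 0.48 for Fzd9 (adjusted p = 0.103), 0.39 for Fzd4 (adjusted p = 0.10) and 0.56 for Rspo2 (adjusted p = 0.112). Without control posterior array 6 the Rspo4 value was -0.31 (adjusted p = 0.0674). Without mutant array 1 the Dkk1 value was 1.06 (adjusted p = 0.0749), and without control posterior array 4 the Cd44 value was 0.66 (adjusted p = 0.0553). The number of fits that lost the call was 10 for Fzd9, 7 for Fzd4, 13 for Rspo2, 5 for Rspo4, 8 for Dkk1 and 2 for Cd44.

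Between regions 0 of the 111 pathway genes were higher in posterior palate (1.7% of all genes were) and 8 were lower (7.21%, beside 2.12% of all genes). Sp8, a transcription factor of craniofacial and limb epithelium, had the largest difference at -2.09 (SE 0.46, adjusted p = 0.0139). Sostdc1, a secreted antagonist of WNT and BMP, followed at -0.97 (SE 0.18, adjusted p = 0.00493). The receptors Fzd5 and Ror1 were lower by differences of -0.62 and -0.61 (adjusted p = 0.0413 and 0.0310). Nuclear factors gave 3 calls, Pygo1 at -0.36 (adjusted p = 0.0240), Tle3 at -0.35 (adjusted p = 0.0298) and Tcf7l1 at -0.33 (adjusted p = 0.0402). Csnk1d was lower at -0.24 (adjusted p = 0.0353). Fits that left out 1 array kept the calls of Sostdc1 and Sp8 in all 18. The other 6 lost theirs in 5 to 12 of those fits, with the highest adjusted p at 0.101 for Fzd5 without control posterior array 6. Cell type genes differed between the same arrays: 15 of 16 skeletal muscle genes were higher in posterior palate, and the differences were above 0 for 2 of 19 basal and simple epithelium genes and 3 of 17 stratified epithelium genes, with 1 called lower in each of these 2 lists. With the basal and simple epithelium mean as a covariate (4.9% of all genes called), 7 of the 8 calls were kept and Csnk1d was -0.22 (adjusted p = 0.0508). With the skeletal muscle mean as a covariate, which moves with region, 0 of the 8 were kept, in a fit that called 0.236% of all genes, and the differences lay between -0.86 for Sostdc1 and -0.07 for Ror1. Both comparisons used the control posterior arrays. The mean of Fzd5 was 6.92 in those arrays, 7.53 in control anterior arrays and 7.65 in the mutants, and that of Csnk1d was 11.30, 11.53 and 11.54 in the same order.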

How the data were processed

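RNA from palatal tissue was labelled and hybridised to 18 one-colour Affymetrix arrays. The authors deposited log2 values summarised per probe set with RMA (version not stated), per the submitters' processing notes. Arrays carry no read depth, so their number, 6 per group, limits the precision. The platform annotation gave one symbol for 34945 probe sets, several for 932 and none listed for 9160, and 64 were array controls. All 10 members matched RefSeq by gene number.

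The brightest probe set by mean over all arrays stood for each gene, and 18193 genes and, separately, 45037 probe sets were fitted with limma 3.58.1 in R 4.3.3 (lmFit and eBayes, 3 groups, no covariate, 15 residual degrees of freedom). P-values were 2-sided and adjusted by the Benjamini-Hochberg method over the whole table, with calls at 0.05.

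The members, lists and tests were chosen with earlier results of these data known. Named were all members, up to 3 called genes per pathway list and comparison by size of difference, and the 3 genes closest to each member by Pearson r. Tgfbr2 and 2 epithelium genes given as examples fall outside that rule. Same-numbered control anterior and posterior arrays deviated together (r 0.111 to 0.430 over genes, 6 of 6 pairs over 0.1), so their numbers were taken to pair them. Only 3 of 6 control posterior arrays had their highest r with the anterior array of the same number. Same-numbered arrays also share an array set, so the pairing remains an assumption. Mutant and control posterior arrays of the same number did not deviate together (r -0.222 to 0.157, 2 of 6 over 0.1). Alternatives changed the probe set rule, filter, scaling, variance model, arrays, blocks and covariates. An epithelium covariate with mutant array 1 left out was added after the data were seen.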

Additional observations from a re-analysis of the deposited data

Results flagged for a closer look

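Each of the 25 probe sets was examined in each group for an array far from the other 5, which made 75 groups, and 5 held such a value. Chance marks about 1 group in 20. In mutant palate, array 1 had the lowest Nkd2 value at 6.13, where the next was 7.05, and the lowest value of 1 of the other 5 Apcdd1 probe sets at 7.23, where the next was 9.29. Mutant array 6 had the highest Nkd1 value at 8.0, next to 7.72. Mutant array 3 had the lowest Sp5 value at 5.27, next to 5.64. In control posterior palate, array 5 had the highest value of the second Axin2 probe set at 3.99, next to 3.73.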

How the results depend on the processing

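Array values limit these results through 6 arrays per group, a spread set partly by mutant array 1, and dim signal at some probe sets. The filter on dim genes kept genes at or above the median gene level. It took out 5 members (Nkd1, Nkd2, Notum, Rnf43 and Sp5), so Nkd1 was not tested under it. Among all probe sets, the brightest of Nkd1 stood at percentile 67.1 and that of Sp5 at 47.6. Between genotypes, the number of members called was 1; it was 0 with the mean of probe sets, with the dim filter and with the 4 array sets as a random block, 2 with array weights and with the epithelium covariate (with or without mutant array 1), and 3 with arrays 4 to 6. Leaving out 1 array gave 1 to 2. Between regions it was 0; it was 2 with array weights, 1 with the 2 compared groups only, 3 with the replicate block and 1 with arrays 4 to 6, and leaving out 1 array gave 0 to 0.

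The 2449 genes called between genotypes became 1572 with the 2 compared groups, 890 with the replicate block, 588 with the array sets as a block, 1496 with a muscle covariate and 905 at an adjusted p under 0.01, and 1512 to 2735 when 1 array was left out. The 4835 probe sets became 2978, 1815, 1188 and, at 0.01, 1745, and 3104 to 5296. The 695 genes called between regions became 3356 with array weights, 2151 with the 2 compared groups, 3156 with the replicate block, 1322 with the array sets, 148 with arrays 1 to 3, 220 with arrays 4 to 6, 43 with the muscle covariate, 251 at 0.01, 1364 with the epithelium covariate without mutant array 1, and 389 to 1213 when 1 array was left out. The 837 probe sets became 4936, 3118, 4314, 1651, 167, 265 and, at 0.01, 294, and 428 to 1632. In the genotype comparison the replicate numbers pair no samples, and the replicate block changed no call of a member there. In the region comparison it added Nkd2 and Notum to Apcdd1.

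Of the members' differences, the called one (Nkd1 between genotypes) kept its sign in all alternatives. Every sign change of a member concerned a difference that was not called in the fit described above. With arrays 4 to 6, Nkd2 changed sign between genotypes and was called (limma adjusted p = 0.00518). Between genotypes, Axin2 was -0.0049 with median centring, -0.011 with quantile normalization and -0.48 with arrays 1 to 3, and Sp5 was -0.071 with arrays 1 to 3. Nkd2 was 0.25 with array weights, 0.59 with arrays 4 to 6, 0.080 with the epithelium covariate, 0.26 with the muscle covariate and 0.15 with epithelium and without mutant array 1. Apcdd1 was 0.28, 0.57, 0.10, 0.29 and 0.18 in the same order. Lgr5 was 0.046, 0.16, 0.048, 0.018 and 0.079 in that order, and 0.020 with the mean of probe sets. Znrf3 was 0.0049 with the most variable probe set. Leaving out 1 array gave -0.42 to 0.18 for Apcdd1, -0.11 to 0.19 for Axin2, -0.16 to 0.084 for Lgr5 and -0.11 to 0.17 for Nkd2.

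Between regions, Nkd1 was 0.076 with the mean of probe sets, 0.040 with median centring, 0.025 with quantile normalization, 0.20 with arrays 4 to 6 and 0.54 with the muscle covariate, and -0.13 to 0.056 when 1 array was left out. Znrf3 was 0.028 with the mean of probe sets, 0.11 with the most variable probe set, 0.020 with median centring, 0.023 with quantile normalization, 0.0092 with arrays 1 to 3, 0.13 with the epithelium covariate, 0.62 with the muscle covariate and 0.0070 with epithelium and without mutant array 1. Rnf43 was 0.17, 0.62 and 0.16 with those last 3. Axin2 was 1.08 with the muscle covariate, Sp5 was 0.060 with arrays 1 to 3, Lef1 was -0.0066 with arrays 4 to 6, and Notum was 0.017 with epithelium and without mutant array 1. Of the other pathway genes, Gsk3b between genotypes was -0.15, and Csnk1d and Tle3 between regions were 0.13 and 0.023, with the most variable probe set. Those differences were called in the fit described above. The cause of these changes was not tested.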
